A study of Mus musculus with 3 samples.

Results

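The genes described here encode integrins, laminins and the proteins that join them in basement membranes and hemidesmosomes. They are a list of 44 gene symbols drawn up by family and function, with 25 integrin subunits, 10 laminin chains, 4 other basement membrane genes, 3 hemidesmosome genes and 2 further laminin receptors. Each of the 44 was on the array under a single symbol and had 1 probe set, out of 19935 genes measured in all. The cells were NMuMG, an established epithelial line from mouse mammary gland, grown with puromycin and read on 3 Affymetrix GeneChip arrays. The mock array (n = 1) held cells with the vector pCAGIP, and the MAFK arrays (n = 2) held stable lines with pCAGIP-FLAG-MafK, labelled clone 4 and clone 10. MAFK is a small MAF protein that binds DNA through a basic leucine zipper. Each MAFK line is a clone, the labels do not say so of the mock cells, and mock was measured once, so clonal differences and the transgene cannot be told apart. Clone 4 and clone 10 are separate lines, each measured once, and the labels do not say how they were cultured or extracted. The spread between the 2 MAFK arrays therefore mixes differences between the clones with technical variation. The p-values rest on that spread and on a variance prior taken from other genes.

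Integrins are pairs of an α and a β subunit that anchor cells to the matrix and signal in both directions across the membrane. Most epithelial laminin receptors use β1 or β4. The α6β4 pair binds laminin on the outside and, through plectin and the bullous pemphigoid antigens, keratin filaments on the inside, which makes the hemidesmosome. Laminins are trimers of an α, a β and a γ chain and, with type IV collagen, nidogens and the proteoglycans perlecan and agrin, build the basement membrane under mammary epithelium.

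Promoters are shown for 4 of the 5 members that differed from mock by 2-fold or more in both clones, the rule by which the genes were chosen. Itgb6, Lamb3 and Dst had a first and a second window. The first is shown for Itgb6 and Lamb3, and for Dst the second, which unlike its first holds a match to the patterns below. The table of RefSeq promoters, build GRCm38.p6, held 36 windows for 30 of the members, each running from 250 bases before a start to 50 bases from it, and Itgb4 was not among them. Short patterns known from sites of related leucine zipper factors were searched on both strands, namely TGANTCA as the core of AP-1 sites, TGACNNNGC as the core of sites of CNC factors with small MAF proteins, and TGCTGAC and TGCTGAG as arms of MAF sites. Matches are in capitals in the windows below. The Itgb6 window is at chr2:60722554-60722853 on the minus strand, Lamb3 at chr1:193301744-193302043 on the plus strand, Lamb1 at chr12:31265043-31265342 on the plus strand, and the second Dst window at chr1:34160010-34160309 on the plus strand.
Itgb6: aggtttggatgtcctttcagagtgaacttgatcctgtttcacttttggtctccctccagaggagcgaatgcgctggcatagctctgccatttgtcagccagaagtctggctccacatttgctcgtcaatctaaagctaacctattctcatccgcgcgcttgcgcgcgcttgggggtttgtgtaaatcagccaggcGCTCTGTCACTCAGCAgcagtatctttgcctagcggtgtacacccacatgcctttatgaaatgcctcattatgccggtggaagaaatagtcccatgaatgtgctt
Lamb3: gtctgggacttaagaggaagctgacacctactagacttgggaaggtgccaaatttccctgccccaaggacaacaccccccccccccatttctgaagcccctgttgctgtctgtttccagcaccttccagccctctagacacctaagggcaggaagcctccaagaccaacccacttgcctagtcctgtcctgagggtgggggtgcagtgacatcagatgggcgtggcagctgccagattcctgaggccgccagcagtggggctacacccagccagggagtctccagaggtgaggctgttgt
Lamb1: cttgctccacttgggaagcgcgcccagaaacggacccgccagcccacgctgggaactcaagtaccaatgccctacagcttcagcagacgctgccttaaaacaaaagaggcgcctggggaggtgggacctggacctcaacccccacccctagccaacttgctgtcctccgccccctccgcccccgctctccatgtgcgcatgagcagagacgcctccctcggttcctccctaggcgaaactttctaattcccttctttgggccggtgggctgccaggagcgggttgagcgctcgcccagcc
Dst: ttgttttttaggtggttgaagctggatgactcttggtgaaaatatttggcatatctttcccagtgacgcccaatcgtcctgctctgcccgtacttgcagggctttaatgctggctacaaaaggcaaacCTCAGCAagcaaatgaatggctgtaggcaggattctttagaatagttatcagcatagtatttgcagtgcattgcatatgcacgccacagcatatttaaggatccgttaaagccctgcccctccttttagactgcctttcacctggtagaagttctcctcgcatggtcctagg

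In the Itgb6 window the reverse complements of TGACNNNGC and TGCTGAG stood side by side without overlap, from -55 to -47 and from -46 to -40, counted from the start as 1. The Dst window held the reverse complement of TGCTGAG from -122 to -116. None of the patterns was found in the Lamb3 or Lamb1 window, or in the other listed windows of Itgb6, Lamb3 and Dst. Among the members' 36 windows, 3 (8.33%) held TGANTCA, 5 (13.9%) held TGACNNNGC, 2 (5.56%) held TGCTGAG and 0 held TGCTGAC. The same patterns were in 7.81%, 12.4%, 7.84% and 4.67% of all 32851 promoter windows of that length, in the same order with TGCTGAC last, and 1.21% held both TGACNNNGC and TGCTGAG. A match is a description of the letters and no measure of binding.

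Values are log2 RMA levels, so a difference of 1 is 2-fold. No detection calls were used, so a value below the median of all probe sets (6.91) cannot be told from background here, and a fold with such a value on either side is a ratio of RMA values whose true size is not known. Of the 44 members, 5 (11.4%) differed from mock by 2-fold or more in the same direction in both clones, against 598 of all genes (3.0%). The 1 higher member was Lamb1, where 1.19% of all genes were higher, and the 4 lower members were Itgb4, Itgb6, Lamb3 and Dst, where 1.81% of all genes were lower. No test was made of these shares, since the list was drawn up with earlier results of these data known. "Rose" and "fell" are kept for genes that also had a limma adjusted p (Benjamini-Hochberg over all genes) under 0.05. By that rule 3 members fell, Itgb4, Itgb6 and Lamb3, against 0.762% of all genes, and none rose, against 0.401%. At an unadjusted limma p under 0.05, 3 of the 44 members were higher and 8 lower, where 9.20% of all genes were higher and 8.26% lower; 1 and 4 of these members were 2-fold apart in both clones. With limma's usual prior from all genes, 1 member rose and 3 fell, where 0.642% of all genes rose and 1.16% fell. The median difference of the 44 members was 0 in each clone, as it was over all genes, and 11 members (25.0%) had equal values on all arrays, against 34.3% of all genes.

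**Figure D1:**
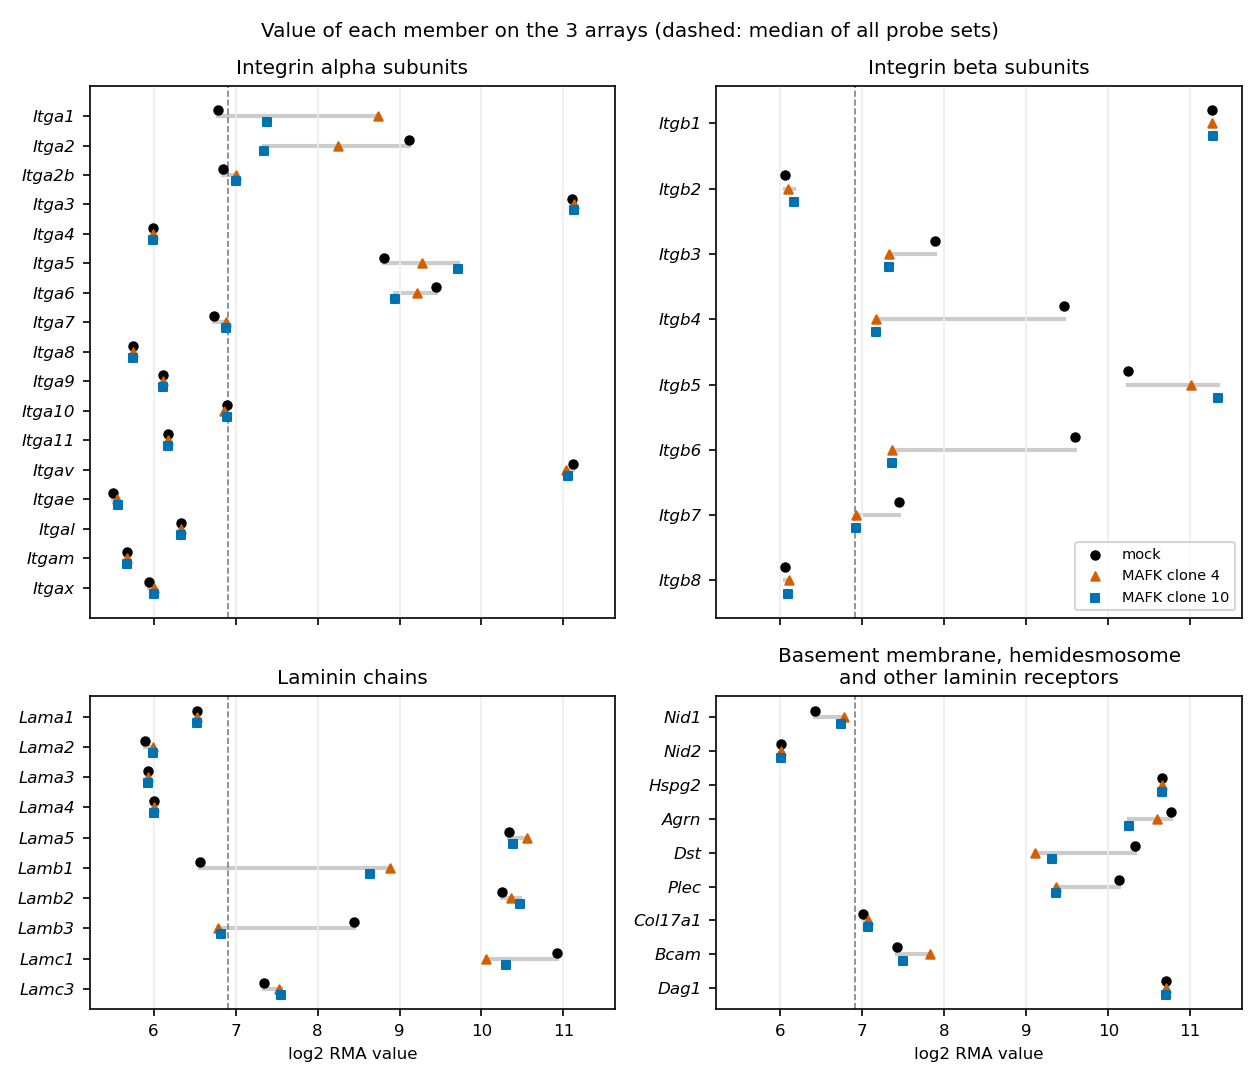
Log2 RMA value (x axis) of each of the 44 members (rows) on the mock array (circle), the MAFK clone 4 array (triangle) and the MAFK clone 10 array (square), by role; grey bars join the lowest and highest array and the dashed line is the median of all probe sets. Itgb4, Itgb6 and Lamb3 lie far to the left of mock in both clones and Lamb1 far to the right, while Itgb1, Itga3, Itgav, Hspg2 and Dag1 hardly differ between the arrays.

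Itgb4 and Itgb6, the β subunits typical of epithelia, fell together by nearly the same amount. Itgb4, whose product pairs with α6 in hemidesmosomes, read 9.46 in mock and 7.17 in each clone. Both clones were far below mock, a difference of -2.29 ± 0.07 (SE) or 4.90-fold, with a limma adjusted p of 0.0293. Itgb6, whose product pairs with αv and binds fibronectin and latent TGF-β, read 9.60 in mock and 7.36 in each clone. Both clones again lay far below mock, with a difference of -2.24 ± 0.07 (SE) or 4.72-fold and a limma adjusted p of 0.0293. Each of these genes had an identical value in clone 4 and clone 10, which median polish can return and which gives the fit its smallest standard error. That standard error of 0.07 comes from the variance prior alone and is no measured spread of either gene. With the variance of such tied genes raised to the prior's, an alternative added after seeing the data, both still passed. In RNA from bulk cells, fewer cells of a kind and less RNA per cell cannot be told apart.

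The other 6 β subunits did not pass. Itgb5, whose product pairs with αv as a vitronectin receptor, read 10.24 in mock against 11.01 and 11.34 in clones 4 and 10. Both clones were above mock, by 1.71-fold and 2.14-fold (limma adjusted p = 0.171). Itgb3, another partner of αv, read 7.88 in mock and 7.33 in each clone, 1.46-fold lower (limma adjusted p = 0.108). Itgb7, known from lymphocytes, read 7.45 in mock and 6.92 in each clone, 1.45-fold lower (limma adjusted p = 0.111). The broadly used subunit gene Itgb1 read 11.26, 11.26 and 11.28 in mock, clone 4 and clone 10. Itgb2, the leukocyte subunit gene, and Itgb8, a further αv partner, were below the median of all probe sets on every array, with differences of 0.07 and 0.04.

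The α partners of the β subunits that fell did not pass. Itga6, the partner of β4 and also of β1, read 9.44 in mock against 9.21 and 8.95 in clones 4 and 10, a difference of -0.36 ± 0.15 (SE; limma adjusted p = 0.411). Both clones lay below mock, by 1.17-fold and 1.40-fold. Itgav, the partner of β6, β5 and β3, read 11.12 in mock against 11.03 and 11.05 in clones 4 and 10. Itga3, which with β1 forms a laminin receptor, read 11.11 in mock and 11.13 in each clone. The differences of Itgav and Itga3, -0.08 and 0.02, were close to the standard error of 0.07 or below it.

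None of the 17 α subunits was 2-fold apart in both clones, but the collagen receptor genes Itga1 and Itga2 were apart in 1 clone each. Itga1 read 6.79 in mock, below the median of all probe sets, against 8.74 and 7.38 in clones 4 and 10. By these RMA values it was 3.89-fold above mock in clone 4 and 1.51-fold above in clone 10, with 2.58-fold between the clones (limma adjusted p = 0.566). Itga2 read 9.12 in mock against 8.25 and 7.35 in clones 4 and 10, so that the clones lay 1.83-fold and 3.41-fold below mock (limma adjusted p = 0.332). Their differences had opposite signs in both clones, and clone 4 was the further from mock in Itga1 and clone 10 in Itga2. Itga5, the fibronectin receptor subunit gene, read 8.81 in mock against 9.27 and 9.71 in clones 4 and 10, a difference of 0.68 ± 0.23 (SE; limma adjusted p = 0.321).

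Apart from mock in 1 clone alone were 3 members, Itga1, Itga2 and Itgb5, and 271 of all genes (1.36%). Itga1 was the 1 member at least 2-fold apart between the clones, as were 88 of all genes (0.441%). Each clone was measured once, so differences between the clones have no replicate check.

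**Figure D2:**
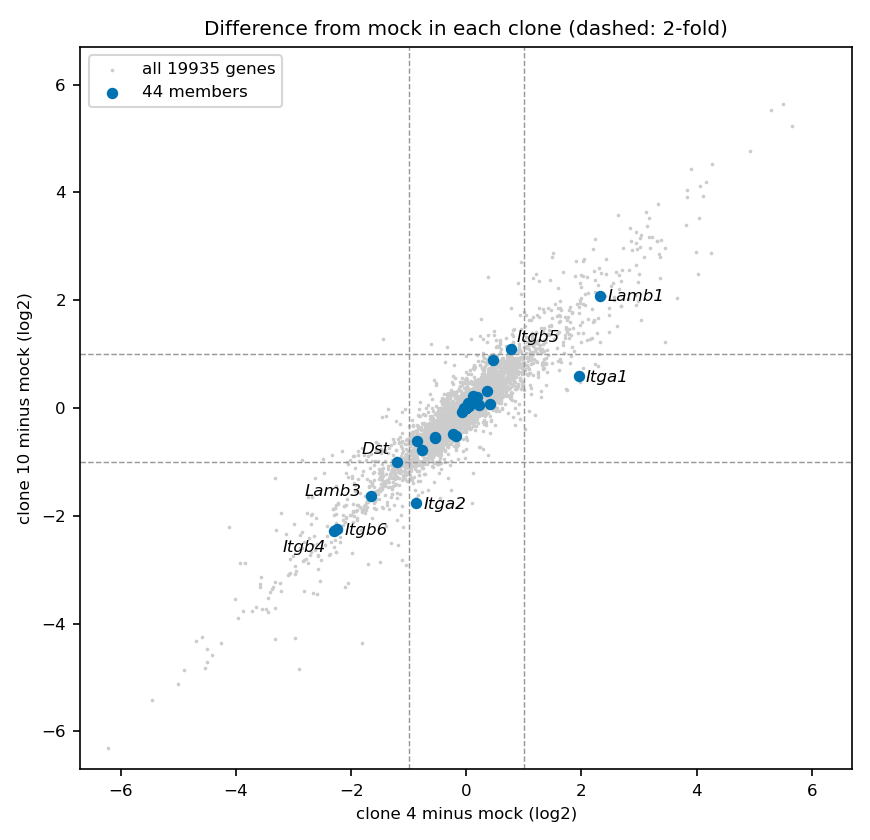
Difference from mock on the log2 scale in clone 4 (x axis) and clone 10 (y axis) for all 19935 genes (grey) and the 44 members (blue), with dashed lines at 2-fold. Itgb4, Itgb6, Lamb3 and Dst lie in the lower left corner beyond both lines and Lamb1 in the upper right, while Itga1, Itga2 and Itgb5 pass 1 line each; both axes share the mock array.

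The laminin β chains differed from mock in opposite directions. Lamb3, the β chain of the epithelial laminin that α6β4 binds, read 8.45 in mock against 6.79 and 6.82 in clones 4 and 10. Both clones were below mock and below the median of all probe sets. The RMA values differed by -1.65 ± 0.07 (SE) or 3.14-fold, with a limma adjusted p of 0.0346, against clone values that cannot be told from background. Lamb1, a β chain of more widespread laminins, read 6.56 in mock, below the median of all probe sets, against 8.89 and 8.64 in clones 4 and 10. By these RMA values it was 5.04-fold and 4.23-fold higher but did not pass, at 2.21 ± 0.15 (SE) with a limma adjusted p of 0.0542. With low genes left out it was at the edge of passing (limma adjusted p = 0.0498), and with the usual prior it passed (limma adjusted p = 0.0399). Lamb2, the third β chain, read 10.25 in mock against 10.36 and 10.47 in clones 4 and 10, within 1.17-fold.

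The α and γ chains that join these β chains differed less. Lamc1, the γ chain of most laminins, read 10.92 in mock against 10.06 and 10.30 in clones 4 and 10. Both clones were lower, by 1.81-fold and 1.53-fold, without passing (-0.74 ± 0.14 SE; limma adjusted p = 0.168). Lama5, an α chain of adult epithelial basement membranes, read 10.33 in mock against 10.55 and 10.38 in clones 4 and 10. Lama3, the α chain that joins β3, read 5.93 on each array, below the median of all probe sets. Lama1, Lama2 and Lama4 were also below that median on every array, with a largest difference of 0.11, and Lamc3 read 7.35 in mock against 7.53 and 7.56 in clones 4 and 10.

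Of the hemidesmosome plaque genes, those of both linker proteins were lower without passing. Dst, whose epithelial isoform is a bullous pemphigoid antigen linking α6β4 to keratin, read 10.32 in mock against 9.10 and 9.31 in clones 4 and 10. The clones were 2.32-fold and 2.01-fold lower (-1.11 ± 0.13 SE; limma adjusted p = 0.0964), which puts Dst just inside the 2-fold limit. Which Dst isoforms its probe set reads was not analysed here. Plec, the gene of the linker plectin, read 10.13 in mock and 9.36 in each clone, 1.71-fold lower (limma adjusted p = 0.0730) and so just outside the limit, as was Itgb5 on the higher side. Col17a1, the transmembrane collagen of the hemidesmosome, read 7.01 in mock and 7.07 in each clone, close to the median of all probe sets.

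Among the other basement membrane genes and laminin receptors no member passed or was 2-fold apart in both clones. Hspg2, the gene of perlecan, read 10.66 on each array, and Dag1, which encodes the laminin receptor dystroglycan, read 10.70 on each. Agrn, the gene of agrin, read 10.77 in mock against 10.60 and 10.25 in clones 4 and 10 (-0.34 ± 0.19 SE; limma adjusted p = 0.570). Nid1, whose product nidogen bridges laminin and type IV collagen, read 6.42 in mock against 6.77 and 6.74 in clones 4 and 10, and Nid2 read 6.01 throughout. Bcam, a receptor for the laminin α5 chain, read 7.42 in mock against 7.83 and 7.49 in clones 4 and 10.

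In all, 18 members stayed below the median of all probe sets on every array. Besides those given above, they were the α subunit genes of leukocytes (Itgal, Itgam and Itgax), of the lymphocyte partners of β7 (Itga4 and Itgae), of the collagen receptors α10 and α11 (Itga10 and Itga11), and Itga7, Itga8 and Itga9. These 10 genes differed from mock by at most 0.14. Itga2b, the platelet subunit gene, read 6.85 in mock and 7.01 in each clone. RMA compresses differences at such levels, so a change in these genes may not be detectable.

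Genes known to work with the members were followed in lists written down by function. Of 14 measured integrin ligands outside the basement membrane, 1 was 2-fold higher and 3 were lower in both clones. The shares over all genes were 1.19% and 1.81%. At an unadjusted limma p under 0.05, 2 were higher and 5 lower, beside 9.20% and 8.26% of all genes. With limma's usual prior 1 rose and 2 fell, beside 0.642% and 1.16% of all genes. Fn1, the gene of fibronectin, which α5β1 and αv integrins bind, read 10.33 in mock against 12.40 and 12.45 in clones 4 and 10 and rose 4.28-fold (limma adjusted p = 0.0311). Cdh1, whose product E-cadherin is the ligand of αEβ7, read 11.35 in mock against 6.85 and 6.64 in clones 4 and 10 and fell (limma adjusted p = 0.0282), by 24.3-fold in RMA values, with both clones below the median of all probe sets. Vcam1, a ligand of α4 and α9 integrins, read 10.35 in mock against 6.32 and 6.80 in clones 4 and 10, also below that median (limma adjusted p = 0.0542). Tnc, which encodes the β6 ligand tenascin-C, read 9.26 in mock against 7.97 and 7.67 in clones 4 and 10 (limma adjusted p = 0.0985). Latent TGF-β is a further ligand of αvβ6, as is fibronectin, whose gene Fn1 rose as given above. Tgfb1 was 1.13 ± 0.18 (SE) lower on the log2 scale without passing (limma adjusted p = 0.140). It was not 2-fold apart in both clones and was named after its values were seen.

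**Figure D3:**
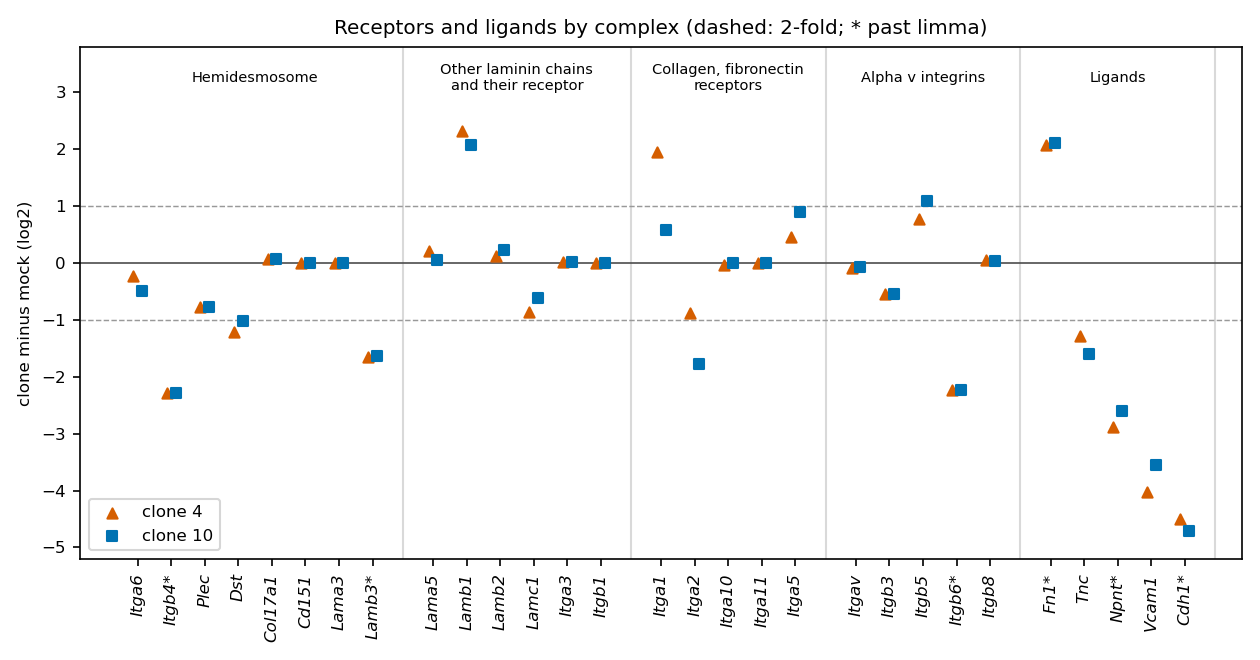
Difference from mock on the log2 scale (y axis) in clone 4 (triangles) and clone 10 (squares) for members and their ligands, grouped by complex; dashed lines mark 2-fold and asterisks the genes past limma. Within the hemidesmosome Itgb4 and Lamb3 lie below -1.5 while Itga6, Col17a1, Cd151 and Lama3 lie between -0.5 and 0.1. Dst (-1.21 and -1.01 in clones 4 and 10) and Plec (-0.77 in each clone) lie between these groups. Lama3 was below the median of all probe sets on every array, and Col17a1 was close to it. Among αv integrins Itgb6 is low and Itgb5 above 0.

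Of 20 basement membrane partners, 1 fell, none rose and 19 were not 2-fold apart in both clones. Over all genes 0.762% fell, 0.401% rose and 3.0% were 2-fold apart in both clones. Npnt, which encodes nephronectin, a basement membrane ligand of α8β1, read 10.91 in mock against 8.03 and 8.31 in clones 4 and 10, 6.69-fold lower with a limma adjusted p of 0.0464. Its receptor gene Itga8 read 5.75 on each array. The type IV collagen genes Col4a1 and Col4a2 differed from mock by -0.04 and 0.06. At an unadjusted limma p under 0.05, 0 of the 20 were higher and 2 lower, beside the 9.20% and 8.26% of all genes, and with the usual prior 0 rose and 1 fell, beside 0.642% and 1.16%.

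No gene rose or fell in 3 other lists, where 0.401% of all genes rose, 0.762% fell and 3.0% were 2-fold apart in both clones. Of 17 measured integrin linkage genes, Tns1, the gene of the adaptor tensin 1, was 2-fold apart in both clones, at 7.92 in mock against 9.63 and 9.28 in clones 4 and 10 (limma adjusted p = 0.107). Of 14 dystroglycan complex genes, Dtna, the gene of α-dystrobrevin, was 2-fold apart by RMA values (limma adjusted p = 0.0774). It read 6.35 in mock, below the median of all probe sets, against 7.42 and 7.58 in clones 4 and 10. It was also the 1 gene of these 3 lists called with limma's usual prior. None of 9 hemidesmosome partners was 2-fold apart in both clones, among them Cd151, the tetraspanin of laminin-binding integrins, at 11.28 on each array. At an unadjusted limma p under 0.05 the linkage list had 3 genes higher and 3 lower, the dystroglycan list 3 and 1, and the hemidesmosome partners 0 and 4, beside the same 9.20% and 8.26% of all genes. The median differences of the lists in this and the preceding comparisons ran from -0.24 to 0.01, against 0 over all genes.

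The median of all probe sets was 6.89 on the mock array and 6.92 and 6.93 on those of clones 4 and 10. Of 12 epithelial marker genes, 7 reached the median of all probe sets on some array. Of the 12, 2 fell, Cdh1 and Tjp1, beside 0.762% of all genes. At an unadjusted limma p under 0.05, 0 of the 12 were higher and 6 lower, namely Cdh1, Tjp1, Krt18, Krt8, Dsp and Ocln, beside 9.20% and 8.26% of all genes. Below the median on every array were, among others, the defining markers Epcam (5.58 on each array), Esrp1 and Grhl2. The keratin gene Krt18 read 11.95 in mock against 10.92 and 11.08 in clones 4 and 10 (limma adjusted p = 0.0972). Krt8 read 13.67 against 13.18 and 13.31, and Krt19 read 11.99 against 12.25 and 12.08, in the same order. None of the 8 basal, 8 fibroblast, 7 endothelial or 8 immune markers measured rose or fell by the rule above, nor with limma's usual prior, but with an intensity trend Dcn, a fibroblast marker, fell. At an unadjusted limma p under 0.05 there were 3 higher and 3 lower among them, where 9.20% of all genes were higher and 8.26% lower. The fibroblast markers had mean values of 6.62, 6.53 and 6.55 in mock, clone 4 and clone 10. Dcn was 2-fold lower by RMA values in both clones, where it was below the median of all probe sets. Col1a2 differed from mock by 0.85 and 0.58 in clones 4 and 10, Col1a1 by 0.28 and 0.30 and Col3a1 by 0.26 and 0.29, none past limma. The immune markers had 6.27, 6.01 and 6.10, with Cd14 2-fold lower and Ptprc at 5.81 on each array. The basal markers, from a lineage that makes hemidesmosomes, had 6.86, 6.78 and 6.79, with Krt5 at 6.34 and Trp63 at 6.68 throughout, and Krt14 read 7.65 in mock against 6.95 and 6.87 in clones 4 and 10 (limma adjusted p = 0.0913). The part of these lists in the members' differences was not tested. The probe set of Mafk read 8.49, 8.74 and 8.59 in mock, clone 4 and clone 10, and whether it reads the transgene was not analysed here.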

How the data were processed

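RNA from 1 mock and 2 MAFK arrays was measured. The authors deposited log2 values per probe set. The submitters' processing notes name RMA, which corrects background, quantile normalizes and summarises probes by median polish; its version and the genome build are not given in the sources used here. Of 28815 probe sets, 21780 had 1 gene symbol, updated by Entrez identifier (21689 matched), and the probe set with the highest mean stood for each of 19935 genes. The number of arrays limits the precision.

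Members, lists and tests were chosen with earlier results of these data known. Differences were tested across all genes with limma 3.58.1 in R 4.3.3 (two-sided, Benjamini-Hochberg), with 1 residual degree of freedom and a variance prior (1.93 degrees of freedom, SD 0.0694) from genes whose clones differed, since 55.5% were equal in both. The spread of mock is thereby taken to equal that of the clones. In the simulated data on which the fit was run, mock was given the clones' spread, so they cannot test that assumption. An exact permutation over 3 arrays cannot give a p below 0.333. Array values are given for members at least 2-fold apart in 1 or both clones, past limma or near the limit, those with the highest means and their partners, and 2-fold genes of the lists; others are named to account for all members or markers. Alternatives were probe set choice, normalization, a low-value filter, fold limits, priors, treat and leaving out a clone.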

Additional observations from a re-analysis of the deposited data

How the results depend on the processing

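Itgb4, Itgb6 and Lamb3 passed under each alternative fit, with between 3 and 4 members passing. The fourth was Lamb1, with low genes left out, limma's usual prior or an intensity trend. At a limit of 1.5-fold in place of 2-fold, 10 members were apart in both clones and 1230 of all genes, and at 3-fold 4 members and 287 genes. A second quantile normalization left 4 members 2-fold apart, without Dst. Plec, Itgb3, Itgb7 and Itga2b were past limma with that normalization, limma's usual prior and an intensity trend alike, but not 2-fold apart. Without clone 4, 7 members and 715 genes were 2-fold apart, and without clone 10, 6 members and 753 genes, with no test left. Over all genes, 232 rose or fell, against 360 with limma's usual prior and 398 with an intensity trend. No difference of a named member turned its direction while past the test. Robust estimation could not be fitted because most variances were 0. No paired analysis was possible because the groups share no replicate number. Precision is limited by 1 mock array.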

Other observations

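The protein-coding genes within 2 places on either side of Itga1, Itgb4, Itgb6, Lamb3, Lamb1 and Dst were followed, in the RefSeq gene order, and were looked up after the members' values were seen. Besides Itga2, itself a neighbour of Itga1, 21 of them were measured. None rose or fell or was 2-fold apart in both clones, and 2 were 2-fold apart in 1 clone, beside 1.36% of all genes. At an unadjusted limma p under 0.05, 2 were higher and 2 lower, beside 9.20% and 8.26% of all genes. Near Lamb3, Plxna2, a semaphorin receptor gene, read 10.04 in mock against 8.50 and 9.24 in clones 4 and 10, lower like Lamb3 (limma adjusted p = 0.301), while the adjacent genes G0s2 and Camk1g had equal values on all arrays. Beside Lamb1, Fam110c read 6.97 in mock against 6.12 and 5.90 in clones 4 and 10, on the other side of mock from Lamb1 (limma adjusted p = 0.119), and Dld read 9.57 throughout. Near Itgb6, Tank read 9.43 in mock and 10.16 in each clone, also opposite (limma adjusted p = 0.0784), and the adjacent genes Pla2r1 and Rbms1 differed by 0.18 and -0.03. Near Dst, Imp4 read 11.02 in mock against 10.11 and 10.19 in clones 4 and 10 (limma adjusted p = 0.0766), and Gm15455 read 9.69 against 10.22 and 10.19 (limma adjusted p = 0.121). Around Itga1 and Itga2, Pelo read 7.11 in mock and 7.18 in each clone, Mocs2 read 8.22 on each array, and Isl1 differed by 0.03. Sap30bp, next to Itgb4, read 10.01 throughout.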
